A study of Mus musculus with 140 samples.

Results

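Potassium channel genes were followed through enhanced crosslinking and immunoprecipitation (eCLIP) in mouse brain, which read out binding by TDP-43, a protein that binds RNA, and the RNA modification N6-methyladenosine (m6A). Earlier results of these data were known when this gene family was picked, but membership uses no measured value. It takes every protein-coding gene of GENCODE vM21 on an autosome whose symbol starts with Kcn, which gave 92 of 21951 protein-coding genes. Of the 92 genes, 82 had at least 1 enriched cluster in at least 1 of 70 immunoprecipitation libraries. The other 10 (Kcnk15, Kcnmb3, Kcna10, Kcna7, Kcnj1, Kcnk16, Kcne1, Kcnk7, Kcnv2 and Kcnk18) had none in any library. The filter on low counts left 66 genes for testing in at least 1 comparison and 26 in none.

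The R6/2 mice (B6CBA-Tg(HDexon1)62Gpb/3J) carry a transgene of exon 1 of human HTT with an expanded CAG repeat and model Huntington's disease. They were compared with non-transgenic (NT) mice at 3 months of age, in cortex and in striatum, with 4 males and 4 females per group in each assay and region. In the other experiment C57Bl/6 males were injected into the cerebral ventricle at 5 weeks of age with PBS or with 500 ug of an oligonucleotide antisense to the TDP-43 transcript (ASO). Their tissue was collected 2 weeks later and m6A eCLIP was done on 3 ASO and 3 PBS mice. These libraries are labelled cortex, although the treatment text given with them names striatum. TDP-43 eCLIP used UV-crosslinked tissue and m6A eCLIP used poly-dT-selected RNA, so m6A values concern polyadenylated RNA. Each library was listed as clusters, which are short stretches with more reads in the immunoprecipitate than nearby, each with a p-value and a log2 fold over its input library. A cluster was counted as enriched at a p of 0.001 or below and a fold above input. Libraries held 4929 to 54931 enriched clusters for TDP-43 and 56398 to 99040 for m6A, and the lists hold no reads, so the depth of each library is unknown.

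Potassium channels let potassium leave, or in some cases enter, the cell along its gradient, and they set the resting potential and the shape and rate of action potentials. Voltage-gated channels (Kcna to Kcnd, Kcnf, Kcng, Kcns, Kcnv, Kcnq, Kcnh) open on depolarisation, or are silent subunits that modify others. Inward rectifiers (Kcnj) and two-pore channels (Kcnk) hold the resting potential. Calcium- or sodium-activated channels (Kcnma, Kcnn, Kcnt) follow spikes and are grouped here with their relative Kcnu, a channel of sperm, and auxiliary subunits (Kcnab, Kcne, Kcnip, Kcnmb) tune the gating or transport of the pore subunits. Striatal projection neurons rest at a very negative potential that depends on inward rectifiers. TDP-43 binds UG-rich RNA and acts in splicing, stability and transport, and m6A is written mostly at a consensus whose core is often GGAC, toward the end of the coding sequence and in the 3′ UTR.

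The RNA at sites of 4 genes, Kcnh3, Kcnc1, Kcnip3 and Kcnj4, is shown first. These genes were called lower in R6/2 (adjusted p under 0.05 in limma) in at least 3 of 4 genotype comparisons. Each line is a 29-base window of the transcribed strand, 5′ to 3′, from the GRCm38 reference, whose coordinates are those of mm10, and capitals mark 1 GGAC per m6A window and 1 UGUGU per TDP-43 window where it is present. The Kcnj4 m6A window holds another GGAC, left in lower case.
Kcnh3 m6A site: ccacagcuuuauGGACcuccacuucagac
Kcnc1 m6A site: ugaggaggcgcuGGACagcuuuggcggug
Kcnip3 m6A site: cagcugccagccGGACcaagcagucuggc
Kcnj4 m6A site: caggacuggaaaGGACccagguacuccgc
Kcnj4 TDP-43 site: gagggggaagggUGUGUuucuuuugcaug
Kcnh3 TDP-43 site: ggcgcccucccccggcgcugaguccccgc
The Kcnh3 m6A site is in the coding sequence on chromosome 15 (plus strand, 99242089 to 99242488) and is the only m6A site of that gene in either region. The Kcnc1 m6A site is in the coding sequence on chromosome 7 (plus strand, 46397823 to 46398248) and the Kcnip3 site in the coding sequence on chromosome 2 (minus strand, 127521239 to 127521364). The Kcnj4 m6A site is in the 3′ UTR on chromosome 15 (minus strand, 79484017 to 79484474) and holds GGAC 8 times. All 4 m6A sites held an enriched cluster in 8 of 8 libraries of each of the 4 groups of R6/2 and NT mice.

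The Kcnj4 TDP-43 site (chromosome 15, minus strand, 79484009 to 79484083) overlapped the Kcnj4 m6A site. It was enriched in 8 NT and 6 R6/2 libraries in cortex and in 8 NT and 4 R6/2 libraries in striatum. The Kcnh3 TDP-43 site (5′ UTR, chromosome 15, plus strand, 99224869 to 99224975) holds no UGUGU and was enriched in 8 NT and 5 R6/2 libraries in cortex, and in 7 NT and 1 R6/2 libraries in striatum.

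On channel genes TDP-43 clusters lay mostly in the 3′ UTR. In NT cortex 63.5% ± 3.5 (SD, n = 8) of their enriched TDP-43 clusters were in the 3′ UTR, against 36.3% ± 3.4 over all annotated genes. In NT striatum the shares were 61.0% ± 5.4 and 36.3% ± 2.8. The coding sequence held 25.1% ± 3.2 of channel clusters in NT cortex against 52.8% ± 2.9 over all genes. In NT m6A libraries channel genes and all genes were closer, with 50.1% ± 4.9 and 47.0% ± 3.3 of clusters in the 3′ UTR in cortex. The 3′ UTR made up a median of 46.1% of annotated exon length for the 92 genes and 33.7% for all protein-coding genes, and the part of this length in the shares was not tested.

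**Figure D1:**
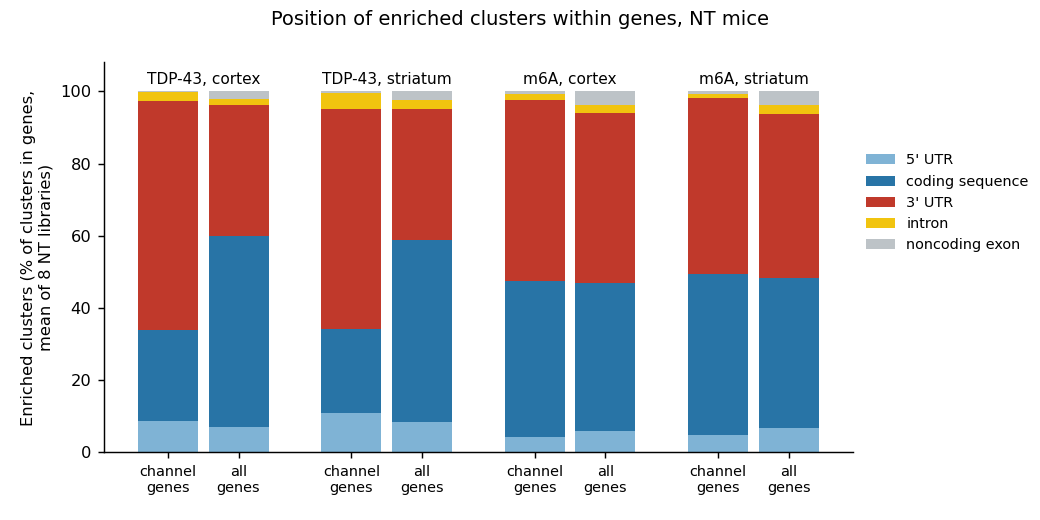
Mean share of enriched clusters by position in the gene (%, vertical axis) over 8 NT libraries per bar, for potassium channel genes and for all annotated genes in each assay and region. The 3′ UTR block of the channel genes spans 63.5% in TDP-43 cortex against 36.3% for all genes, whereas the m6A cortex bars have 50.1% and 47.0%.

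GGAC was searched on the transcribed strand within 50 bases to either side of the centre of sites, that is, of stretches where at least 4 of 16 libraries had an enriched cluster. In cortex 52.9% of 357 m6A sites of channel genes held it, against 34.5% of windows 200 bases upstream of the same sites, and 54.6% of all m6A sites held it. UGUGU was found in 12.3% of 375 TDP-43 sites of channel genes in cortex and in 14.4% of their upstream windows, against 13.7% and 16.2% for all TDP-43 sites. Within the 3′ UTR 15.9% of 239 channel sites held UGUGU against 21.3% of all 3′ UTR sites. These are matches of letters in windows, given as a description.

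m6A and TDP-43 clusters favoured different channel genes. Values below are enriched clusters per library divided by a size factor of the comparison, and levels are set between genes only per kb of annotated exon. Per kb, Kcnj4 (the inward rectifier Kir2.3) had the most m6A clusters among the channel genes, with 15.1 ± 1.6 in NT striatum and 13.6 ± 1.6 in NT cortex (SD, n = 8), beyond the spread of the next genes, Kcnd2 at 6.26 ± 0.73 in striatum and Kcnk1 at 5.18 ± 0.73 in cortex. Kcnd2 carries the A-type current of dendrites, and Kcnk1 is a two-pore channel. In TDP-43 eCLIP of NT cortex the densest genes were Kcnj9 (3.91 ± 0.57 per kb), Kcnab2 (3.77 ± 0.53) and Kcnf1 (3.24 ± 0.60), which did not differ beyond their spread. Kcnj9 is a G-protein-gated rectifier subunit, Kcnab2 a cytoplasmic β subunit of Kcna channels and Kcnf1 a silent voltage-gated subunit. In NT striatum Kcnj4 had 1.88 ± 0.44 TDP-43 clusters per kb.

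Kcnma1, the calcium-activated BK channel, had 1.52 TDP-43 clusters per kb in NT cortex and only 0.30 m6A clusters per kb. The Kcnn genes, small-conductance calcium-activated channels, showed the reverse, with 0.003 TDP-43 and 0.75 m6A clusters per kb over the subfamily. By class, m6A density in NT cortex was 2.77 per kb for inward rectifiers, 2.09 for voltage-gated, 1.12 for two-pore, 0.60 for auxiliary and 0.51 for ion-activated genes. The TDP-43 densities there were 0.75, 0.97, 0.21, 0.69 and 0.49 in the same order. The 4 Kcne genes, small β subunits, had no enriched TDP-43 cluster in either region of either genotype.

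In R6/2 mice the channel genes held a smaller part of all TDP-43 clusters. In striatum their share of enriched clusters within genes ran from 0.731 to 1.01% in NT (mean 0.939% ± 0.088, SD, n = 8) and from 0.370 to 0.725% in R6/2 (0.553% ± 0.136), without overlap. In cortex it ran from 0.980 to 1.13% in NT (1.06% ± 0.06) and from 0.564 to 0.871% in R6/2 (0.782% ± 0.095), also without overlap. The m6A share in cortex was 1.23% ± 0.05 in NT and 1.12% ± 0.04 in R6/2, with no overlap, and in striatum it was 1.07% ± 0.04 and 0.941% ± 0.049, where the ranges met at 1.00%. With all listed clusters in place of the enriched ones, the TDP-43 share in striatum was not lower in R6/2 (0.893% ± 0.089 in NT and 0.962% ± 0.174 in R6/2), and in cortex it was 1.13% ± 0.08 and 1.05% ± 0.07. With touching clusters counted once, the m6A ranges in cortex overlapped (1.03 to 1.12% in NT, 0.958 to 1.06% in R6/2), and the TDP-43 ranges stayed apart. At the study's thresholds the m6A ranges in cortex overlapped (1.43 to 1.89% and 1.28 to 1.58%). So did the TDP-43 ranges in striatum (0.633 to 1.21% and 0.505 to 0.870%), but not those in cortex.

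**Figure D2:**
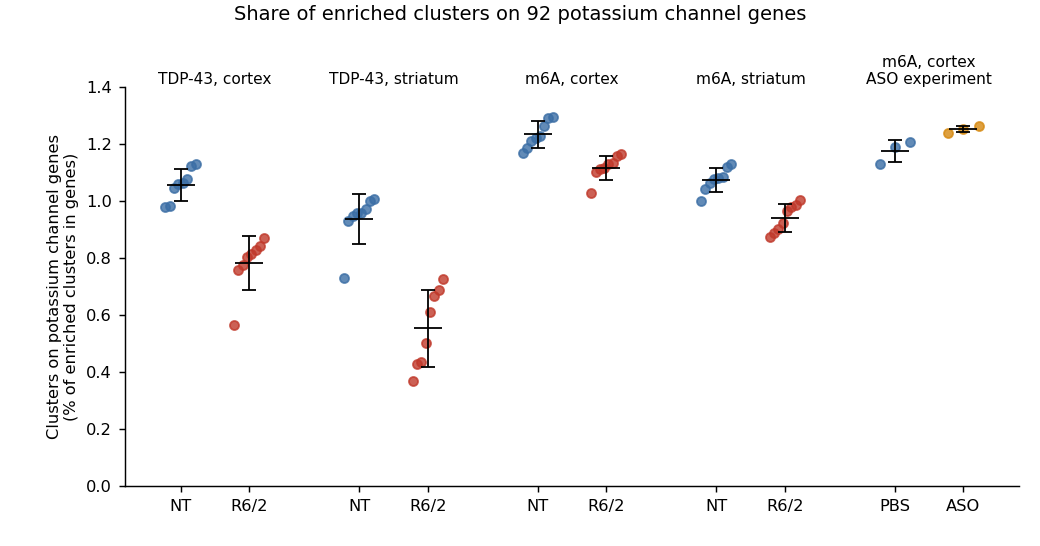
Share of enriched clusters within genes that lay on the 92 potassium channel genes (%, vertical axis), 1 point per library, with mean and SD, for NT (blue) and R6/2 (red) or PBS (blue) and ASO (orange). All R6/2 points lie below all NT points except in m6A striatum, and the ASO points lie above the PBS points.

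Some TDP-43 libraries of striatum stood apart. In 5 of 8 R6/2 libraries at least 30% of listed clusters were intronic (group mean 33.0% ± 11.1, against 20.3% ± 4.2 in NT), and 1 NT library (male 1) had only 4929 enriched clusters. The 3 R6/2 libraries under 30% intronic had channel shares of 0.668 to 0.725%, still below every NT library. They were males 1, 2 and 3, so no R6/2 female was among them and intronic share cannot be told apart from sex. The lowest NT share, 0.731%, was that of NT male 1. In cortex 29% ± 4.4 of listed clusters were intronic in R6/2 and 24.6% ± 3.2 in NT. There 5 of 8 R6/2 libraries and all 8 NT libraries were under 30% intronic, and the highest R6/2 library was at 35.9%. The cortex comparison was not refitted without the R6/2 libraries above that limit. Markers of striatal projection neurons moved with the genotype. Their 10 genes summed to 86.9 to 188 TDP-43 clusters per library in NT striatum and 39.0 to 54.9 in R6/2, with 7 of 9 tested called lower, and to 190 to 231 m6A clusters in NT and 115 to 133 in R6/2, with 9 of 10 called lower. In cortex 4 of 4 tested were called lower for TDP-43 (summed 22.2 to 33.5 against 2.16 to 8.48) and 6 of 8 for m6A (62.9 to 73.7 against 33.8 to 50.2). Of the 8 cortical excitatory markers 1, 5, 7 and 8 were tested in TDP-43 striatum, TDP-43 cortex, m6A striatum and m6A cortex, and none was called by limma. All 6 microglial markers were at 0 in TDP-43 libraries of both regions. Of the GABA interneuron markers 0, 1, 5 and 4 were tested in the same order. All of those tested were lower in R6/2, and 1 was called, in TDP-43 cortex. Of the astrocyte markers 2, 3, 5 and 5 were tested, and 2, 2, 5 and 4 were lower. Called lower were 2 astrocyte markers in m6A striatum and 1 in m6A cortex. No oligodendrocyte, microglial or vascular marker was called. The part of these markers, of intronic share and of transcript level in the channel results was not tested, and in bulk tissue fewer cells of a type and less RNA per cell cannot be told apart.

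In TDP-43 eCLIP of cortex, 13 of 33 channel genes tested were called lower in R6/2 and none higher, at an adjusted p under 0.05 (limma with sex as a covariate, Benjamini-Hochberg over all genes tested), where 7.79% of all 3734 genes were called. The median change of the 33 genes was −0.63 on the log2 scale against −0.09 over all genes. The ether-a-go-go family (Kcnh) had all 4 of its tested members called. Kcnh3, which encodes a brain Elk-type channel, had 3.9 to 9.21 clusters in NT libraries (median 8.36) and 0 to 2.37 in R6/2 (median 0.943). No R6/2 library reached an NT library, and the change was −2.79 (SE 0.38, adjusted p = 0.00023 in limma). Kcnh7, an Erg-type channel, went from 6.66 to 15.5 in NT (median 9.59) to 0 to 10.3 in R6/2 (median 2.89), with overlap and a change of −1.86. Kcnh1 (−1.80) and Kcnh5 (−1.70), both Eag-type channels, overlapped as well.

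Among the other voltage-gated genes Kcnc1, whose Kv3.1 channel supports fast spiking, had 12.2 to 23.7 clusters in NT (median 18.8) and 2.16 to 11.0 in R6/2 (median 6.92). Its groups did not overlap, and the change was −1.43 (SE 0.23, adjusted p = 0.0011 in limma). Kcnq5, an M-current subunit, ran from 4.87 to 11.1 (median 7.64) in NT and from 1.28 to 4.73 (median 2.56) in R6/2, again apart, with a change of −1.22. Kcna1, a low-threshold axonal channel, fell by 1.43. The auxiliary subunits Kcnab3 (−1.50) and Kcnip3 (−1.19) were called lower, as was Kcnj11 (−0.91), the pore of the ATP-sensitive channel. Kcna2 had a smaller called change, −0.46. The count of 13 fell to 3 with intronic share as a covariate, to 4 in males alone, to 1 in females alone and to 6 with a replicate block, and Kcnq5 was at 0.14 with all listed clusters.

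In striatum the TDP-43 comparison called 6 of 21 tested channel genes, all lower, with 14.3% of 2221 genes called over the whole table. The median change of the 21 was −0.68 against −0.05 over all genes. Kcnj4 ran from 2.50 to 5.25 in NT (median 4.14) and from 0 to 1.64 in R6/2 (median 0.722), the only called member whose groups did not overlap, with a change of −2.14 (SE 0.35, adjusted p = 0.0007 in limma). Kcnk2, the mechanosensitive two-pore channel TREK-1, had a median of 7.90 (0 to 9.75) in NT and 0.410 (0 to 3.61) in R6/2, a change of −2.60. The 0 in NT was in the library with the fewest enriched clusters. Kcna2, the main axonal Kv1 subunit, went from a median of 18.5 to 7.74 (−1.96), Kcnd2 from 3.30 to 0.410 (−1.63) and Kcnq3 from 13.2 to 8.42 (−0.68). Kcnh3 had a median of 1.90 in NT and was at 0 in all but 1 R6/2 library (−1.94). Without the 5 R6/2 libraries with many intronic clusters none of the 6 was called, and their changes lay between −0.23 (Kcnd2) and −1.16 (Kcnh3). The R6/2 libraries left in that fit were all male. In males alone the changes of the 6 lay between −0.60 and −1.48 with no call. In females alone they lay between −0.77 and −3.71, and all of the 6 but Kcna2 were called.

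m6A clusters were fewer on channel genes of R6/2 striatum, with smaller differences. Of 62 genes tested, 14 were called lower and 2 higher, where 9.66% of 9474 genes were called. The median change was −0.19 against 0.02 over all genes. Kcnh3 again led, from 3.18 to 7.39 clusters in NT (median 4.85) to 0.857 to 2.13 in R6/2 (median 1.08), with no overlap and a change of −1.68 (SE 0.19, adjusted p = 3.9e-06 in limma). Its relative Kcnh4 went from 3.97 to 6.10 (median 4.80) to 0.841 to 2.27 (median 1.73), also apart (−1.40, SE 0.18). Kcnj14, a Kir2 rectifier, went from a median of 3.12 to 0.939 (−1.47) and Kcnip3 from 12.2 to 6.87 (−0.72), both without overlap. Kcnip3 encodes a calcium sensor, also known as DREAM or calsenilin, that binds Kv4 channels. The silent subunits Kcns3 (−1.35) and Kcng4 (−1.05), the β subunit Kcnab1 (−0.86), Kcnk2 (−0.70) and the acid-sensitive two-pore channel Kcnk9 (−0.69) were called lower with overlapping groups.

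The 2 genes called higher were Kcna3, from a median of 3.52 to 4.80 (0.71, SE 0.21), and Kcnj3, from 8.21 to 13.6 (0.51, SE 0.15). Kcna3 is a Kv1 channel and Kcnj3 the main subunit of G-protein-gated rectifiers. Kcnj3 exceeded the NT mean, taken over both sexes, in all 8 R6/2 libraries, and Kcna3 in all but 1. In females Kcnj3 ran from 5.59 to 8.48 in NT and from 11.1 to 15.1 in R6/2, without overlap. In males it ran from 6.44 to 15.9 in NT and from 12.8 to 15.3 in R6/2, so the groups overlapped. Smaller called decreases were those of Kcnc1 (−0.42), Kcnj4 (−0.40), Kcna5 (−0.31) and Kcnq5 (−0.27).

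In m6A eCLIP of cortex 8 of 61 channel genes were called lower and 1 higher, with 6.23% of 8835 genes called, and the median change was −0.13 against 0.02. Kcnk4, the two-pore channel TRAAK, ran from 3.76 to 6.61 in NT (median 4.25) and from 1.78 to 3.10 in R6/2 (median 2.31), without overlap (−0.85, SE 0.14, adjusted p = 0.00076 in limma). With touching clusters counted once Kcnk4 was at 0.0414 and Kcnj4 at 0.16, so their direction turned. Kcnh3 went from a median of 4.22 to 1.99 (−0.87). Kcnj9 (−0.51), Kcns1 (−0.49), Kcnip3 (−0.44), Kcnj4 (−0.33), Kcnc1 (−0.31) and Kcnh1 (−0.23) were also lower. Kcnd3, a Kv4 channel of the A-type current, was called higher, from 26.6 to 30.6 in NT (median 29.9) to 28.8 to 37.9 in R6/2 (median 35.5), a change of 0.23.

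**Figure D3:**
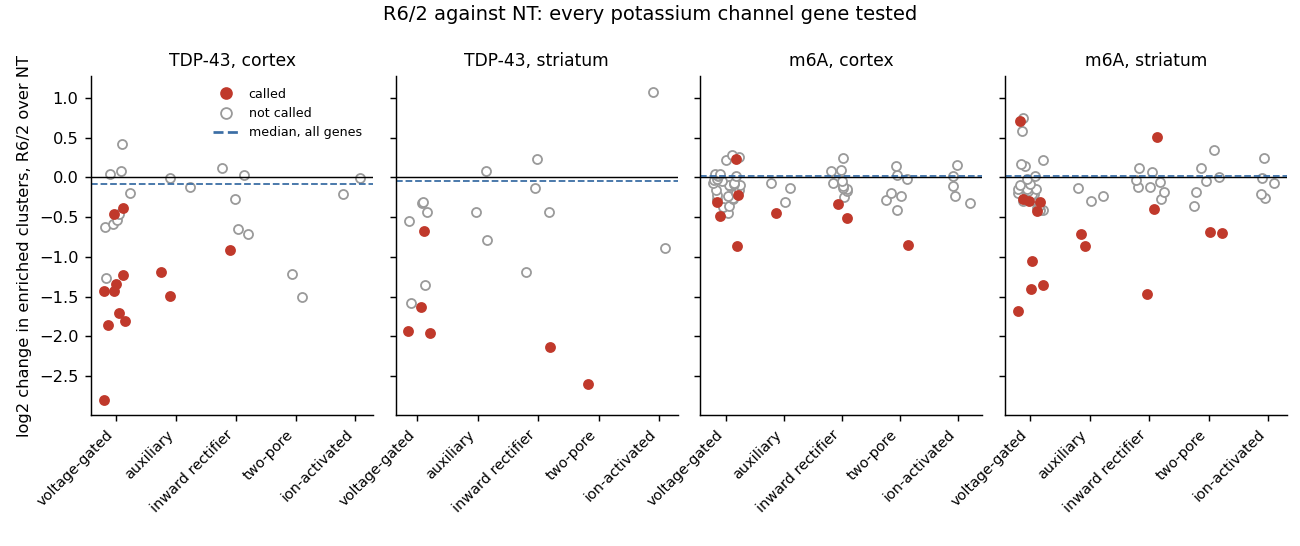
Change in enriched clusters in R6/2 over NT (log2, vertical axis) for every potassium channel gene tested, by channel class, 1 panel per assay and region. Filled red points were called, open points were not, and the dashed line is the median over all genes; 13 of 13 called points in TDP-43 cortex and 6 of 6 in TDP-43 striatum lie below 0.

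Over the 4 genotype comparisons 28 channel genes were called lower in at least 1 and 3 were called higher in 1, and no gene was called in both directions. Of these, 8 were called lower in at least 2 comparisons, 4 in at least 3 and Kcnh3 in all 4. These counts over the 4 comparisons were not made over all genes. They therefore describe the channel genes only and do not show that such recurrence is particular to them. Each comparison of an assay and region has its own libraries, but both regions were dissected from 1 cohort and the labels do not say which libraries share a mouse. In cortex 24 of 32 channel genes tested in both assays were lower in both (75%, against 30.8% of 3003 genes), and 4 were called lower in both (12.5% against 1.63%). In striatum 16 of 20 were lower in both (80%, against 35.1% of 1890 genes), and 3 were called lower in both (15% against 4.07%).

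**Figure D4:**
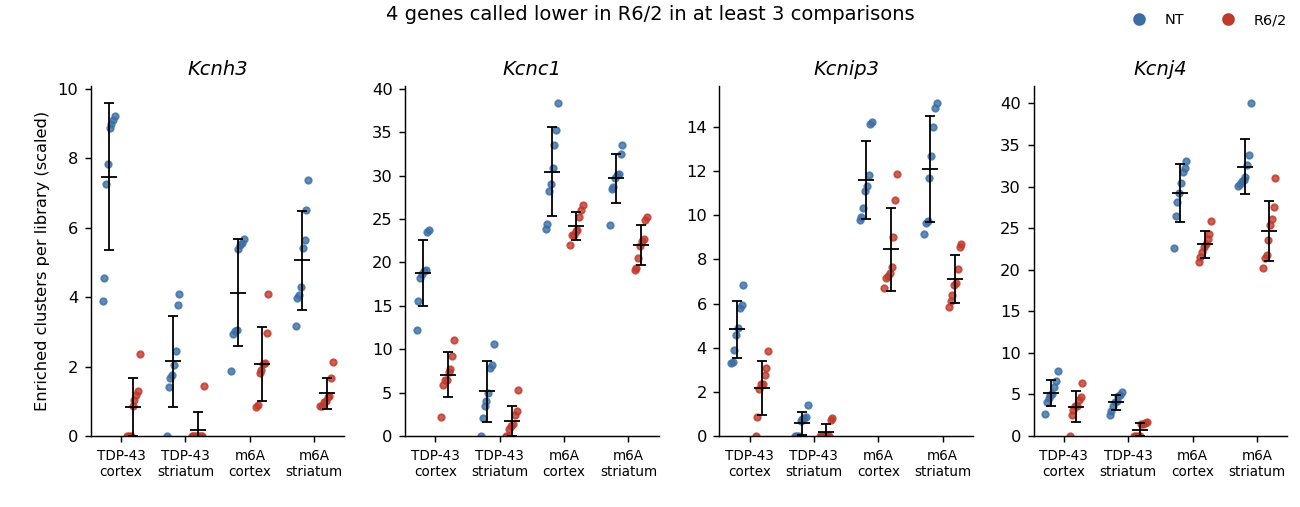
Enriched clusters per library divided by the size factor of the comparison (vertical axis) for Kcnh3, Kcnc1, Kcnip3 and Kcnj4, NT (blue) and R6/2 (red), 8 libraries each, with mean and SD (bars cut at 0). TDP-43 points of R6/2 cortex lie near or at 0 for Kcnh3 (0 to 2.37), whereas its m6A points stay above 0 in every library.

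The 2 assays differed in the unscaled bases covered on genes called with fewer clusters. A stretch of bound RNA is often listed as several touching clusters, so a gene can lose clusters while the same bases stay covered. For the 13 genes called lower for TDP-43 in cortex the bases covered by enriched clusters, not scaled for depth, were lower in R6/2 for all 13, by a median of 57.8% (24.7 to 89.6%). For the 6 in striatum the median loss was 76.0% (42.3 to 96.9%). For the 14 genes called lower for m6A in striatum, 12 covered fewer bases, with a median change of −18.7%, and in cortex 6 of 8 did, with a median change of −8.74%. Mean enriched clusters per library were lower in R6/2 for TDP-43 (38634 to 31619 in cortex, 17843 to 15969 in striatum). For m6A they were higher (62821 to 68891 and 71393 to 73799). The part of these totals in the base values was not tested, and the bases of all genes were not compared.

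Kcnj4 was an example. In striatum it had 32 ± 4.8 m6A clusters in NT and 25.1 ± 4.0 in R6/2 before scaling, but they covered 632 ± 19 and 639 ± 19 bases. Its TDP-43 clusters covered 242 ± 82 bases in NT striatum and 63.0 ± 71.5 in R6/2. Kcnh3 had 402 ± 36 bases under m6A clusters in NT striatum and 342 ± 63 in R6/2, while clusters went from 5.00 ± 1.51 to 1.25 ± 0.46, and its TDP-43 bases in cortex went from 467 ± 162 to 48.8 ± 58.0. The highest log2 fold of an m6A cluster on Kcnh3 was 2.19 ± 0.25 in NT striatum and 1.34 ± 0.21 in R6/2. Kcnh4 and Kcnk2 had fewer m6A bases as well as fewer clusters in striatum, from 476 ± 42 to 232 ± 88 and from 1137 ± 104 to 881 ± 136. When touching clusters were counted once, 10 of the 13 TDP-43 calls in cortex were made again, but 3 of the 16 m6A calls in striatum (Kcnh4, Kcnj14 and Kcnk2) and none of the 9 in cortex.

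At single sites, the presence of an enriched cluster was compared with Fisher's exact test over all sites. No site passed after adjustment in any comparison (0% called), for channel genes or others. At an unadjusted p under 0.05, TDP-43 sites of channel genes numbered 40 of 375 in cortex (10.7%, against 4.11% of all sites) and 23 of 172 in striatum (13.4% against 5.90%), and all were present in fewer R6/2 libraries. For m6A the counts were 6 of 357 in cortex and 8 of 354 in striatum, of which 2 and 6 were present in fewer R6/2 libraries. These m6A shares, 1.68% and 2.26%, lay below the 2.77% and 2.58% of all sites.

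Sites of Kcnh genes led by p, and their RNA is given for comparison with the motifs above.
Kcnh4 m6A, 5′ UTR: ggaggaggcaggccggcgcauggggcgcc
Kcnh4 m6A, coding: cagccaguguugGGACaguggagauaggg
Kcnh3 TDP-43, 3′ UTR: gaggaggaggcugagcuggagccucaggc
Kcnt2 TDP-43, coding: agcauguuguccUGUGUgucagcuccuug
The 5′ UTR site of Kcnh4 (chromosome 11, minus strand, 100759658 to 100759749) was enriched for m6A in 8 of 8 NT and 0 of 8 R6/2 striatal libraries (exact p = 0.000155, adjusted p = 0.135). Its coding site (chromosome 11, minus strand, 100741670 to 100741794), which holds GGAC, was enriched in 8 and 1. The Kcnh3 TDP-43 site (chromosome 15, plus strand, 99242589 to 99242657) was enriched in 8 NT and 1 R6/2 cortex libraries and the Kcnt2 site (chromosome 1, plus strand, 140426826 to 140426938) in 8 and 2. TDP-43 sites of Kcnh7 and Kcnc1 in the 3′ UTR were each enriched in 7 NT and 0 R6/2 cortex libraries. One m6A site went the other way. A 43-base stretch of the Kcnh1 3′ UTR was enriched in 0 NT and 8 R6/2 striatal libraries, but a site 40 bases away was enriched in all 16, so a shift of cluster borders cannot be told apart from a gain.

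m6A and TDP-43 sites met on some channel transcripts. In cortex 86 of 357 m6A sites (24.1%) overlapped a TDP-43 site, against 16.5% over all genes, and in striatum 39 of 354 (11.0%) against 8.77%. Among m6A sites of genes that also had a TDP-43 site the shares were 31.0% for channel genes and 31.8% for all genes in cortex, and 18.6% and 23.1% in striatum. Kcnj9 had 6 of 11 m6A sites on a TDP-43 site in cortex.

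Region was compared in NT mice. For TDP-43, 20 of 32 channel genes were called, 16 lower and 4 higher in striatum, where 52.2% of all 3124 genes were called. The median change over all genes was itself −0.66, and 0.05 under quantile normalization, which moved the split of channel calls to 15 lower and 10 higher. Kcnh7 had 8.77 ± 3.09 clusters in cortex and 0.132 ± 0.372 in striatum (−3.94, SE 0.30), Kcnf1 13 ± 2.3 and 1.82 ± 2.40 (−3.30) and Kcnc2, a Kv3 channel, 4.50 ± 1.94 and 0 in every library. Of the 32 genes, 3 (Kcnh7, Kcnc2 and Kcnh5) passed the filter on low counts through the cortex libraries alone, so a difference was built into their selection. Kcnh5 (−2.82), Kcnd3 (−2.68) and Kcnh1 (−2.43) were also much lower in striatum. Kcna4 (1.63), the Kv1 channel with fast inactivation, Kcnj2 (1.61), the Kir2.1 rectifier, and Kcnip2 (1.54), a Kv4 partner, were among the 4 genes higher in striatum.

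For m6A, 35 of 64 channel genes were called between regions, 25 lower and 10 higher in striatum, with 18.3% of 9021 genes called. Kcnk4 (−2.37, SE 0.36) and the G-protein-gated subunits Kcnj6 (−2.11), Kcnj3 (−1.47) and Kcnj9 (−1.08) were lower in striatum, as were the Kv3 gene Kcnc4 (−1.31) and Kcnj13 (−1.78). Kcnab1 (1.51), Kcna5 (1.24), Kcnk2 (1.09) and Kcna4 (0.86) were higher. Kcnk2 had 9.26 ± 1.75 clusters in cortex and 20.3 ± 4.0 in striatum, and Kcna5 5.27 ± 0.92 and 13.2 ± 2.1, both without overlap. Of 31 channel genes tested in both assays 26 had the same sign (83.9%, against 60.7% of all 2568 genes). The 13 called in both all had it, as did 91.4% of all genes called in both, and 11 were lower and 2 (Kcna4 and Kcnj2) higher in striatum. Kcnh7, Kcnc2 and Kcnh5 are among the 11, and the filter on low counts had built in their TDP-43 direction. Their agreement between the assays is therefore no separate result. In the same libraries all 10 projection-neuron markers were called higher and all 8 cortical excitatory markers lower in striatum for m6A, and 7 of 7 and 3 of 3 tested for TDP-43. When touching clusters were counted once, 12 of the 35 m6A calls and 18 of the 20 TDP-43 calls were made again.

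**Figure D5:**
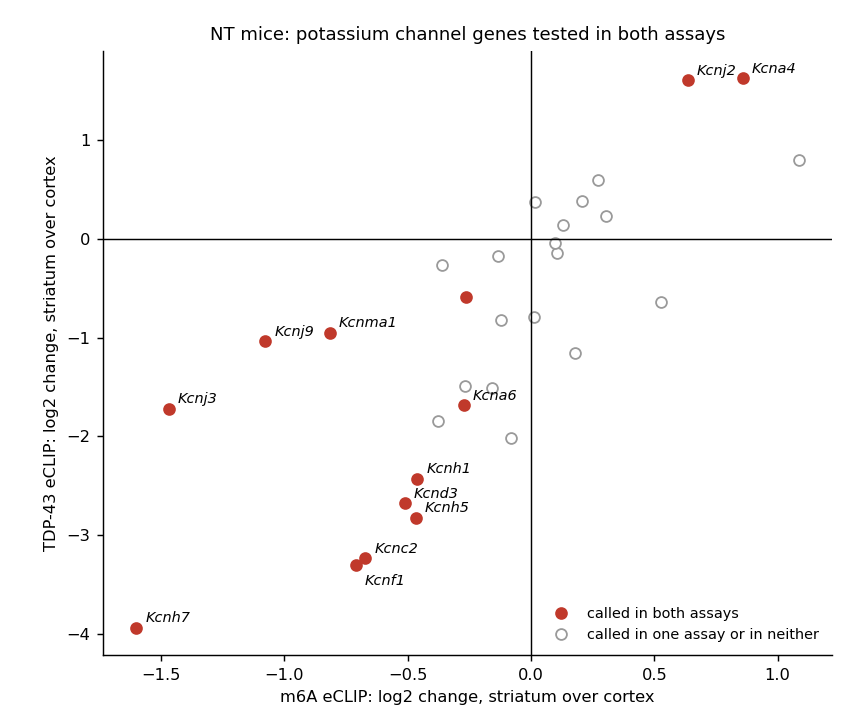
Change in enriched clusters in striatum over cortex (log2) in NT mice, m6A on the horizontal and TDP-43 on the vertical axis, 1 point per potassium channel gene tested in both assays (31 genes). The 13 red points were called in both, and all of them lie at the lower left (11) or the upper right (2). Kcnh7, Kcnc2 and Kcnh5, among the 11, passed the TDP-43 filter through cortex libraries alone.

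Whether the R6/2 effect differed between regions was tested as an interaction. For TDP-43 no channel gene of 26 was called (0.069% of genes called), although 5 had an unadjusted p under 0.05 in limma. For m6A 1 of 63 was called (0.254% of genes called). Kcnk9 had a change in striatum more negative than in cortex by −0.83 (SE 0.18, adjusted p = 0.027 in limma). The call was lost under 6 alternatives, among them the replicate block, each sex alone and touching clusters counted once, and without striatal NT male 1 or 3, striatal R6/2 male 3 or cortex NT male 4.

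In the ASO experiment the antisense target was checked first. Tardbp had 17.4, 16.8 and 22.6 m6A clusters in the PBS mice and 7.48, 8.28 and 9.46 in the ASO mice, a change of −1.12 (SE 0.14, adjusted p = 0.0037 in limma). Of 64 channel genes 20 were called higher and 11 lower, where 30.5% of 9884 genes were called, and their median change was 0.01. Within a treatment 99.2 to 99.3% of listed intervals were identical between mice, against 1.82 to 1.97% between treatments. The clusters appear to have been laid out once per treatment and scored per mouse, although no source used here states it, and the near-identical layout within a treatment leaves the p-values too small. Median widths of enriched clusters were 53 to 54 bases in PBS and 63 to 64 in ASO.

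Kcnk6, a two-pore channel, had 1.81, 1.93 and 1.97 as lowest, median and highest value in PBS and 4.2, 5.17 and 5.34 in ASO (1.16, SE 0.13), and its covered bases were higher as well, from 269 ± 53 to 800 ± 67. Kcnb2, a delayed rectifier, went from 9.81 ± 0.87 to 15.7 ± 2.6 clusters (0.65) and from 1274 ± 97 to 1872 ± 311 bases. In contrast Kcnk1 had fewer clusters with ASO (21.9 ± 1.0 against 14.4 ± 0.4, −0.59) on 662 and 673 ± 3 bases. Kcna3 had fewer clusters (−0.73) on more bases (596 ± 31 against 640). Kcnq3 had more clusters (0.52) on slightly fewer bases (1610 ± 61 against 1539 ± 41). Over the 31 called genes the covered bases moved with the clusters, without overlap between treatments, for 8 of the 20 higher and 2 of the 11 lower genes, and against them for 3 and 6. These counts were not made over all genes, and cluster layouts were near identical within a treatment. They therefore describe the 31 genes only and show nothing particular to channel genes. With touching clusters counted once, 17 of the 31 kept their sign, 6 had no change and 8 had the other sign. Kcnj8 (0.90), a pore of ATP-sensitive channels, Kcnj6 (0.55), Kcnj12 (0.51), Kcng4 (0.48), Kcns1 (−0.59) and Kcnk2 (−0.50) were among the other called changes, and of these Kcnj8 turned sign and Kcns1 had no change with touching clusters counted once.

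A list of 26 genes for proteins that partner or regulate potassium channels, such as DPP-like Kv4 subunits, PSD-95 family scaffolds and calmodulins, was followed in the same fits. For TDP-43, 3 of 13 tested were called lower in striatum (Dlg1 −0.76, Dlg2 −0.46 and Dlg4 −0.42, the scaffolds that hold Kv1 channels and receptors) and 0 of 17 in cortex by limma, where 14.3% and 7.79% of all genes were called. For m6A, 3 of 20 were called lower in striatum (Lrrc38 −1.47, Calm3 −0.61 and Ank3 −0.21) and 0 of 20 in cortex, where 9.66% and 6.23% of all genes were called. With ASO 4 were higher and 4 lower of 20, where 30.5% of all genes were called. These counts are small, and no difference from all genes was tested. The largest of the changes called with ASO was that of Dpp6, the Kv4 subunit, with 11.4 ± 0.7 m6A clusters in PBS and 5.59 ± 1.51 in ASO (−0.99, SE 0.18). It carries the limit of a near-identical cluster layout within each treatment.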

How the data were processed

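TDP-43 and m6A eCLIP libraries of mouse cortex and striatum were listed by the authors as clusters called with CLIPper (mm10), 1 list per immunoprecipitation. Per cluster, the deposited values are a −log10 p-value and a log2 fold of immunoprecipitate over input. The 70 input libraries had no list. The log base of the fold was taken from the study's notation. The aligner is not given in the sources used here.

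Enriched clusters (−log10 p of at least 3, fold above input) were assigned by midpoint and strand to GENCODE vM21 genes and counted. Genes with at least 2 in 50% of libraries were tested with limma 3.58.1 (R 4.3.3; trend, two-sided) on log2(count / median-ratio size factor + 0.5) with sex as covariate, none in the ASO experiment. Calls are at an adjusted p under 0.05 over all genes. Changes on this scale understate low genes. The methods give n as animals. Sites were tested with Fisher's exact test (SciPy 1.17.1). The scripts were tested on simulated data. The study used p under 0.001 and log fold over 3, one of the alternatives tried with other filters, scalings, libraries and cluster counting.

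Named genes were, per comparison, at most 12 called genes by size of change, the 3 genes with most clusters, genes called in 3 comparisons or between regions, the densest gene of a subfamily, up to 6 sites, and listed partners and markers. Members and lists were chosen with earlier results of these data known. Neighbouring clusters can belong to overlapping genes.

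Some genes are not reported here by name, although counts over the channel genes include them.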

Additional observations from a re-analysis of the deposited data

Results flagged for a closer look

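In 5 of 76 groups of 8 libraries checked, 1 library lay far from the others (gap over range above 0.526), where chance alone gives about 1 in 20 groups. In TDP-43 striatum, NT male 1 had 0 clusters on Kcnk2 (nearest library 6.13) and 7.51 on Kcnq3 (nearest 11.7), and it is the library with 4929 enriched clusters. R6/2 male 3 had 3.61 on Kcnk2 (nearest 1.51) and 1.44 on Kcnh3 (all others 0). In m6A striatum, NT female 1 had 7.93 on Kcnab1 (nearest 5.36). The m6A change of Kcnk9 differed between regions by −0.83 in the interaction test, and the call was lost under 6 alternatives that count or select clusters and libraries differently.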

How the results depend on the processing

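Cluster lists give no depth, so precision rests on the number of libraries, and calls moved with the choice of clusters and libraries. Of 698 values of named genes under alternatives, 514 kept direction and call, 176 lost the call and 8 reversed. Counts of called channel genes below are in the order TDP-43 striatum (6), TDP-43 cortex (13), m6A striatum (16), m6A cortex (9) and ASO (31) where given. The study's thresholds left 2, 7, 0, 0 and 0, with 1 m6A region call against 35 and 0 m6A interaction calls. A −log10 p of at least 10 left 0 in TDP-43 striatum, 4 in TDP-43 cortex, 19 with ASO and 7 for the TDP-43 region comparison against 20. All listed clusters gave 16, 4, 6 (m6A striatum) and 53 with ASO, 1 TDP-43 and 0 m6A interaction calls. Counting touching clusters once, chosen after seeing the data, gave 2 in TDP-43 striatum, 3 in m6A striatum, 0 in m6A cortex, 10 with ASO, 13 for the m6A region comparison and 0 m6A interaction calls. Males alone gave 0, 4, 7 and 0, with 20 for the m6A region comparison. Females alone gave 1 in TDP-43 cortex, 5 in m6A striatum and 0 in m6A cortex, and neither sex gave an m6A interaction call (0). No filter on low counts gave 10 in m6A striatum, 31 for the TDP-43 region comparison and 2 TDP-43 interaction calls. Intronic share as a covariate, also added later, gave 0 in TDP-43 striatum, 3 in TDP-43 cortex and 4 in m6A cortex, and leaving out libraries with at least 30% intronic clusters gave 0 in TDP-43 striatum. The R6/2 libraries left by that last choice were all male. The replicate numbers did not pair the samples by their deviations (7 of 8 pairs over 0.1 at most, in m6A striatum), and with the replicate block TDP-43 cortex had 6 calls and the m6A interaction 0. Leaving out each library in turn gave 3 to 9, 8 to 14, 10 to 14, 6 to 10 and 21 to 29 calls, 15 to 25 and 33 to 37 for the TDP-43 and m6A region comparisons, and 0 to 1 for both interactions. The lowest counts were 3 in TDP-43 striatum without NT male 2, 3 or 4 or any of the NT females, 8 in TDP-43 cortex without NT male 1 or 2, NT female 1 or 2 or R6/2 male 2, and 10 in m6A striatum without NT female 3 or 4 or R6/2 female 2. A TDP-43 interaction call appeared without cortex NT male 2, and the m6A one was lost without striatal NT male 1 or 3, striatal R6/2 male 3 or cortex NT male 4. Reversed log2 changes were, for TDP-43, those of Kcna2 in striatum with the covariate (0.0074) and, with all listed clusters, Kcnd2 (0.39) and Kcnq3 (0.15) in striatum and Kcnq5 (0.14) in cortex. With touching clusters counted once they were Kcnk4 (0.0414) and Kcnj4 (0.16) in m6A cortex and Kcnj8 (−0.16) and Kcnq3 (−0.19) with ASO. The cause of these changes was not tested.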

Other observations

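Kcnq1ot1, the long noncoding RNA that overlaps Kcnq1 on the other strand and is not a protein-coding gene, had no enriched TDP-43 cluster in any R6/2 or NT library and 4.11 ± 0.36 m6A clusters in PBS against 2.10 ± 0.03 in ASO cortex (n = 3, log2 change −0.82, adjusted p = 0.0047 in limma). Kcnd1, an A-type channel gene on the X chromosome that the autosomal rule leaves out, had 6.68 ± 1.16 m6A clusters in PBS and 11.6 ± 1.2 in ASO (log2 change 0.76, adjusted p = 0.012 in limma) and no enriched TDP-43 cluster in any R6/2 or NT library. Both values carry the limit of a near-identical cluster layout within each treatment.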
